A study of Rattus norvegicus with 17 samples.

Results

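CELF and ELAV-like proteins are 2 related families of RNA-binding proteins, and the results concern 9 of their genes in single sensory neurons of the rat: Celf1, Celf2, Celf3, Celf4, Celf5, Celf6, Elavl2, Elavl3 and Elavl4. All 9 were present among the 32883 gene rows of the counts. They were chosen by name, with earlier results of these data known. The cells were chosen from the data, by 8 gates, each a gene or a pair of genes whose UMI counts (unique molecular identifiers, which count captured RNA molecules) put a cell in it: Sst+Nppb, Trpm8, Clmp, Th, Ntsr1+Chrna3, Gzmbl3+Lpar3, Nmu+Lad1 and Pvalb+Vsnl1. For the reported fits these gate genes, and the number of genes detected per cell, are the only values used to choose cells, and no result rests on them. Some descriptions of single cells also needed 30000 UMIs in a cell, and some alternatives left cells out by UMIs or by glial genes.

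The neurons came from the L4 and L5 dorsal root ganglia of naive adult male Sprague-Dawley rats. They carry no transgene, injury or drug in the labels, and the 17 samples form a single group, each sample being a batch of neurons picked singly by mouth pipette. The protocols describe picking of fluorescently labelled neurons 15 min after plating and of neurons with neurites after 72 hours, from at least 5 rats per time point. The sources used here do not say which of these, or which animals, a batch had. The gates are compared within batches, and p-values measure the spread between batch sums, part of which may be technical. If a batch mixed time points or animals, its gates may differ in these too, which was not tested.

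The counts of batch 21 were those of batch 20, so 16 batches with 1040 cells were used, and 967 cells in which 2000 or more genes were detected were kept. The kept cell nearest that limit had 2001 genes and the nearest cell left out had 1975. Kept cells held 4307 to 1514406 UMIs (median 139374), and batches held 3812280 to 26065847. A cell entered a gate when each gate gene had at least 2 UMIs and 20 CPM (counts scaled to the depth of a cell or sum) in it and no other gate was passed. This put 460 cells in 1 gate, 161 passed several and 346 passed none. Summed over the cells of a batch, with at least 3 cells a sum, 5 gates gave enough sums to compare: Sst+Nppb (11 sums), Clmp (15), Th (5), Ntsr1+Chrna3 (10) and Gzmbl3+Lpar3 (8). Trpm8, Nmu+Lad1 and Pvalb+Vsnl1 gave 2, 1 and 0 sums. They are described further down from a second gating, called looser because it put more cells in these gates.

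The tissue label was checked on genes the gates did not use. The neuronal genes Tubb3, Uchl1, Snap25 and Prph were high in all 5 gates, with Tubb3 between 1289 and 1437 CPM. Rbfox3, also on that list, is not given here. Osmr, the oncostatin M receptor of itch neurons, was at 75.3 CPM in Sst+Nppb cells and at most 20.9 CPM in the other 4 gates, while Hrh1 was at 0 there. Calca, the CGRP gene of peptidergic neurons, was at 1741 CPM in Clmp cells and Kit at 214 CPM. Gfra2 was at 53.5 CPM in Gzmbl3+Lpar3 cells and Mrgprd, a defining gene of non-peptidergic neurons, at 0.576 CPM. The gates are therefore called by their genes only. Summed levels of 9 glial genes overlapped between the gates (169 to 505 CPM in Sst+Nppb, 150 to 397 in Clmp, 187 to 362 in Th, 220 to 377 in Ntsr1+Chrna3 and 242 to 573 in Gzmbl3+Lpar3), with Kcnj10 at 0 in the last 4. Median UMIs per cell differed, at 132785 in Sst+Nppb, 194170 in Clmp, 230804 in Th, 329685 in Ntsr1+Chrna3 and 381095 in Gzmbl3+Lpar3. Where leaving out glia-rich cells or evening out depth ended a call, the value stands beside it. Celf1 to Celf5 were too scarce after thinning to be tested in these 5 gates.

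ELAV-like proteins, also called Hu proteins, bind AU-rich and U-rich stretches of messenger RNA and mostly stabilise it or promote its translation. Elavl2 (HuB), Elavl3 (HuC) and Elavl4 (HuD) are the neuronal members, and HuD is known for binding Gap43 RNA during axon growth. CELF proteins bind GU-rich stretches and act in alternative splicing, RNA decay and translation. Celf1 and Celf2 are expressed in many tissues, whereas Celf3 to Celf6 are found mainly in the nervous system, and Celf4 is known from mouse studies for restraining neuronal excitability.

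The promoters of the 3 members that differed in Sst+Nppb cells, described further down, are shown first. They come from RefSeq on the GRCr8 build, which is not the Rnor_6.0 build of the counts, and 7 of the 9 members matched (Celf2 and Celf4 had no entry). Each runs from 250 bases before the gene's start to 50 bases after it, 5′ to 3′ on the gene's strand. Capitals mark letters of 4 motifs searched on both strands: TGACGTCA (the cAMP response element), GGGCGG (GC box), CCAAT and TATAAA.
Celf3 (chr2:184804841-184805140, plus strand): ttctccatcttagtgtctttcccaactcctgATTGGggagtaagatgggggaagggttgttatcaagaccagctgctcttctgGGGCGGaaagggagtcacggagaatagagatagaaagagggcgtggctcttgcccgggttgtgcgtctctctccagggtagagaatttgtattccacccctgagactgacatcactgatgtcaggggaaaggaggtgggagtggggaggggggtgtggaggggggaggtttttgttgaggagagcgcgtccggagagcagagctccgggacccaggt
Celf6 (chr8:68870843-68871142, plus strand): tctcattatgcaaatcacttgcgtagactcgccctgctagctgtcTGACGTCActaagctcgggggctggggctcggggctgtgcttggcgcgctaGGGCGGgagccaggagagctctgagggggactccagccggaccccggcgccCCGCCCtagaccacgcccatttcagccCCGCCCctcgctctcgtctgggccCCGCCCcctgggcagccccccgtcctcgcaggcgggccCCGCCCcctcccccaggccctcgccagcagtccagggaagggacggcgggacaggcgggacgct
Elavl2 (chr5:111202238-111202537, minus strand): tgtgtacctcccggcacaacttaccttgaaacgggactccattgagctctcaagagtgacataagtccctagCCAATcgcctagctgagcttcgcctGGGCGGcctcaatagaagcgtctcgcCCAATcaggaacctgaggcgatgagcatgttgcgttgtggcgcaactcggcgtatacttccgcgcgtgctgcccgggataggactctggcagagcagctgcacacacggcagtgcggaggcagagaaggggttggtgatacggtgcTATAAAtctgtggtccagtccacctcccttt

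The windows differed in composition. The Celf6 window was 72.3% G or C with 26 CpG pairs, the Celf3 window 56.3% with 9, and the Elavl2 window 57.3% with 19, beside a median of 51.7% over all promoters. Celf6 held 1 TGACGTCA, which 1.83% of 33469 promoters of this length hold, and 5 GC boxes, a motif found in 33.1% of them. Elavl2 held 2 CCAAT motifs, 1 GC box and 1 TATAAA, and Celf3 held 1 CCAAT and 1 GC box. Of all promoters, 37.5% hold CCAAT and 14.2% hold TATAAA. A match is a run of letters and no evidence of binding.

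Across the 5 gates, 6 of the 9 members differed and 3 did not pass the test. The 6 were Celf4 (adjusted p = 0.000942), Celf6 (0.00165), Elavl2 (0.00225), Celf3 (0.00674), Celf2 (0.0102) and Celf1 (0.0490), by edgeR's quasi-likelihood F-test over all gates with batch as a term and Benjamini-Hochberg adjustment over 11773 genes. In the same test 27.7% of all genes were called. Celf5 (0.333), Elavl4 (0.164) and Elavl3 (0.648) were not called. Of these, Celf5 was called with limma on the mean CPM of cells (0.00613). Celf1 lost its call without batch 20, 22, 24, 26, 27, 29, 31, 32 or 33 (adjusted p up to 0.150, edgeR) and with RLE scaling (0.0501). It was also lost with no filter on low counts (0.227) and with limma on mean CPM (0.0817). At a gate threshold of 10 CPM Celf1 (0.0588), Celf2 (0.2901) and Celf6 (0.186) lost their calls, and Celf3 was not tested. At 50 CPM Celf1 (0.451), Celf2 (0.305) and Celf3 (0.293) lost theirs. Celf2 lost its call with at least 5 cells per sum (0.0915), and Elavl2 with cells of several gates given to the highest one. Elavl4 was called without batch 24 (0.0286) or 27 (0.0423), with limma voom (0.0180) and in thinned cells (0.00516). It was also called at gate thresholds of 10 (0.0241) and 50 CPM (0.0133) and with at least 5 cells per sum (0.0163). The same held with no filter on low counts (0.000119), several-gate cells given to the highest gate (0.00766), no batch term (0.0253) and limma on mean CPM (0.00509). It was not called with RLE scaling, DESeq2, at least 2 cells per sum, cells with 4000 genes, glia-rich cells left out or the bias-adjusted deviance. Among the 8 looser gates described further down, Celf1 (0.0860), Celf2 (0.178) and Elavl2 (0.154) were not called and Elavl4 was (1.25e-05). All 9 members passed the filter on low counts. In the tests that follow, each gate is set against the mean of the other 4, and levels are TMM-scaled CPM of the sums, a scale that corrects for differences in composition.

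**Figure D1:**
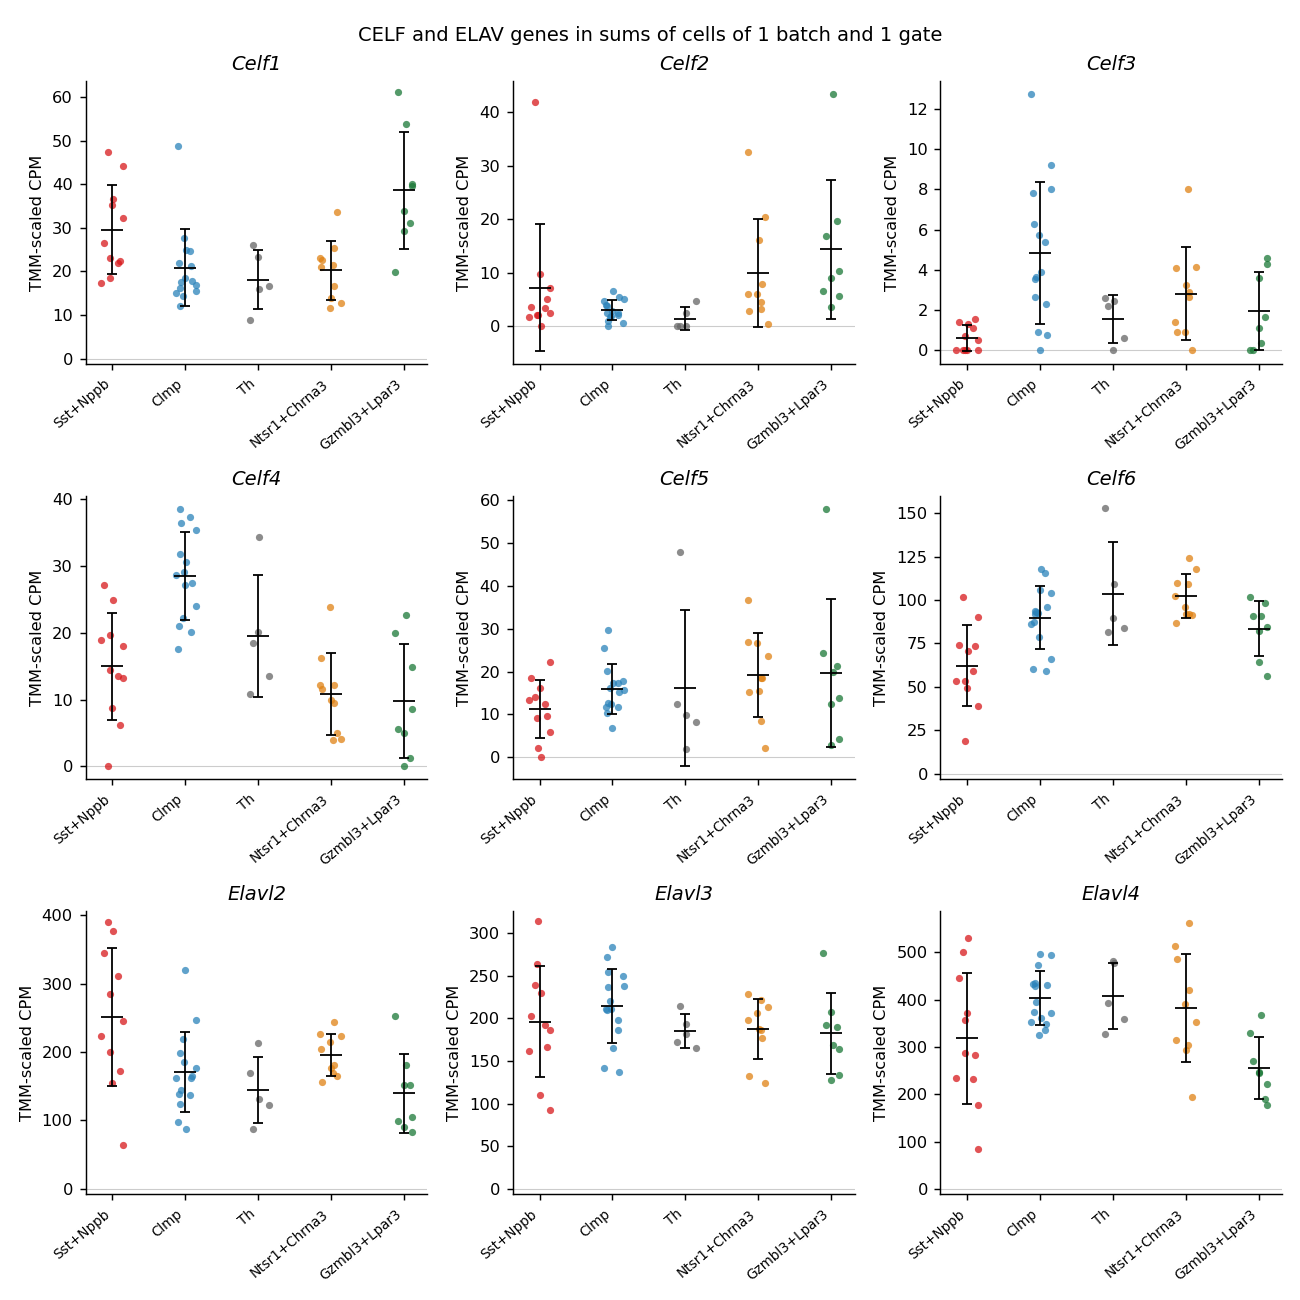
TMM-scaled CPM (y axis, linear) of each member in every sum of cells of 1 batch and 1 gate (points), by gate (x axis), with the mean and SD (bars). Celf4 is highest in Clmp sums and Celf6 lowest in Sst+Nppb sums, while the means of Elavl3 lie between 182 and 214 CPM.

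Sst+Nppb cells carried less Celf6 and Celf3 RNA and more Elavl2 RNA than the other gates in this gating. None of the 3 calls held in the looser gates, where the log2 difference was -0.32 for Celf6 (adjusted p = 0.216, edgeR), -1.31 for Celf3 (adjusted p = 0.154) and 0.44 for Elavl2 (adjusted p = 0.0641). That gating was not looser for Sst+Nppb, with 64 cells in this gate beside 90 in the first gating. Of these, 48 cells were in the gate under each rule. The directions stayed the same in the looser gates. Celf6 averaged 48.5 ± 21.0 CPM in Sst+Nppb (SD, n = 14) and 80.4 ± 26.0 CPM in the other gates (SD, n = 69). It was lower in 13 of 14 batches, while Celf3 was lower in 12 of 14 and Elavl2 higher in 11 of 14. The mean of the other gates then includes Pvalb+Vsnl1, with Celf6 at 24.7 ± 45.9 CPM (SD, n = 4), and the effect of this was not tested. Nppb and Sst mark itch-sensing neurons in the mouse. Of the 9 members, 1 was higher, beside 3.96% of all genes, and 2 were lower, beside 1.72% of all genes. The median log2 fold change of the members was 0.0042, beside 0.0071 over all genes.

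Celf6, a neuronal CELF protein known to act on splicing and RNA stability, lay between 18.6 and 102 CPM in the 11 Sst+Nppb sums (median 59.2), against 56.0 to 153 CPM in the 38 sums of the other gates (median 91.9). The 2 ranges overlapped, and batch 28-1 gave the lowest Sst+Nppb value. Celf6 averaged 62.2 ± 23.4 CPM in Sst+Nppb (SD, n = 11) and 93.6 ± 19.1 CPM in the other gates (SD, n = 38), and the log2 fold change came to -0.68 ± 0.14 (SE; adjusted p = 0.00153, edgeR). Within batches, Celf6 was lower in 10 of 11, the exception being batch 27. The call held with each batch left out in turn. With every cell thinned to 30000 UMIs the log2 fold change was -0.58 (adjusted p = 0.128, edgeR), and with a gate threshold of 10 CPM it was -0.52 (adjusted p = 0.294, edgeR).

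In single cells, a Celf6 UMI was found in 74.4% of Sst+Nppb cells and in 82.6% to 98.4% of the cells of the other gates. After thinning to 30000 UMIs the share was 73.6% in Sst+Nppb (95% exact binomial interval 61.9 to 83.3, 72 cells), 81.0% in Clmp (74.6 to 86.4, 184 cells), 89.5% in Th (66.9 to 98.7, 19 cells), 93.3% in Ntsr1+Chrna3 (83.8 to 98.2, 60 cells) and 80.9% in Gzmbl3+Lpar3 (66.7 to 90.9, 47 cells). Of these intervals, that of Ntsr1+Chrna3 lies above that of Sst+Nppb and the other 3 overlap it. In cells of at least 30000 UMIs the median Celf6 level was 45.3 CPM in Sst+Nppb, 78.1 CPM in Clmp, 98.5 CPM in Th, 94.6 CPM in Ntsr1+Chrna3 and 68.9 CPM in Gzmbl3+Lpar3. Intervals on shares cover counting error only.

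Elavl2, the neuronal HuB gene, went the other way. It lay between 63.8 and 389 CPM in Sst+Nppb sums (median 245), against 83.3 to 320 CPM in the other gates (median 165). The highest Sst+Nppb sums, of batches 27, 31 and 25, exceeded every sum of the other gates, and batch 24 lay below all of them. Elavl2 averaged 252 ± 101 CPM in Sst+Nppb (SD, n = 11) and 167 ± 53.8 CPM in the other gates (SD, n = 38), a log2 fold change of 0.67 ± 0.14 (SE; adjusted p = 0.00130, edgeR), and was higher in 10 of 11 batches. It held with each batch left out and after thinning. With cells that passed several gates given to the highest one, the log2 fold change was 0.31 (adjusted p = 0.129, edgeR), and with a gate threshold of 10 CPM (adjusted p = 0.155) or at least 5 cells per sum (adjusted p = 0.0612) it was 0.54.

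Celf3, a member of the brain-enriched CELF group, was scarce in Sst+Nppb cells. It lay between 0 and 1.53 CPM there (median 0.488), against 0 to 12.7 CPM in the other gates (median 2.64). Only 10 Celf3 UMIs were counted over the 11 Sst+Nppb sums together. After thinning, 2.78% of Sst+Nppb cells had a Celf3 UMI (0.338 to 9.68, 72 cells). The share was 1.67% in Ntsr1+Chrna3 (0.0422 to 8.94, 60 cells), 5.26% in Th, 12.0% in Clmp and 12.8% in Gzmbl3+Lpar3. The log2 fold change came to -2.14 ± 0.66 (SE; adjusted p = 0.0448, edgeR), with Celf3 lower in 10 of 11 batches and higher in 0. This call is the least secure of the 3: it was lost without batch 20, 25, 26, 27, 28-1, 28-3, 29, 34 or 35 in turn (adjusted p up to 0.148, edgeR). With glia-rich cells left out Celf3 was at -2.21 (adjusted p = 0.0882, edgeR), and with cells of several gates given to the highest one at -0.87 (adjusted p = 0.322, edgeR).

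The other 6 members did not pass the test in Sst+Nppb cells, with adjusted p from 0.338 (Celf5) to 0.990 (Elavl3) in edgeR. Elavl3 averaged 196 ± 64.7 CPM in Sst+Nppb (SD, n = 11) and 197 ± 41.2 CPM in the other gates (SD, n = 38), a log2 difference of 0.0042 ± 0.11 (SE).

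**Figure D2:**
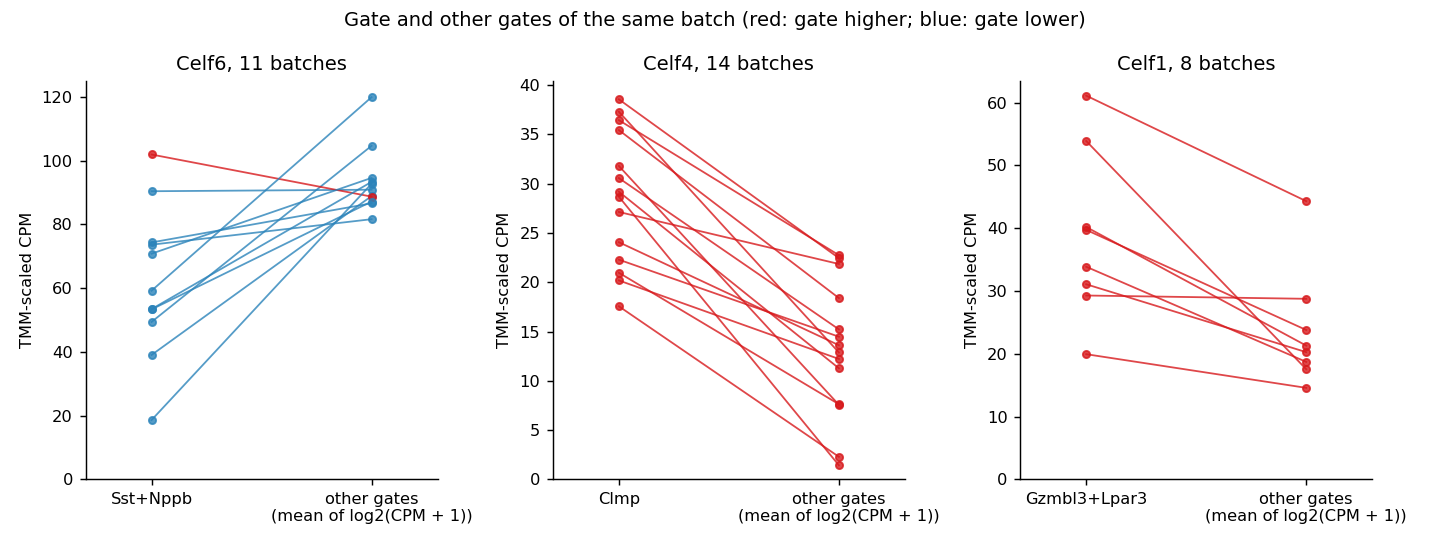
TMM-scaled CPM (y axis, linear from 0) of Celf6 in Sst+Nppb, Celf4 in Clmp and Celf1 in Gzmbl3+Lpar3 cells (left points), joined to the value of the other gates of the same batch (right points), averaged as log2(CPM + 1). Celf6 is lower in 10 of 11 batches, Celf4 higher in 14 of 14 and Celf1 higher in 8 of 8.

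Clmp cells, summed per batch, carried more Celf4 and Celf3 RNA. Of the 9 members 2 were higher, beside 10.6% of all genes, and 0 were lower, beside 8.71% of all genes, by edgeR. At an unadjusted p under 0.05, edgeR likewise gave these 2 members alone. DESeq2 called 0 lower, and limma voom called 1 lower. The median log2 fold change of the members was 0.17, beside 0.03 over all genes.

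Celf4 lay between 17.6 and 38.6 CPM in the 15 Clmp sums (median 28.7), against 0 to 34.3 CPM in the 34 sums of the other gates (median 12.8). It was higher in Clmp in 14 of 14 batches that held another gate, and the ranges overlapped across batches. Celf4 averaged 28.5 ± 6.61 CPM in Clmp (SD, n = 15) and 13.2 ± 8.16 CPM in the other gates (SD, n = 34), a log2 fold change of 1.25 ± 0.25 (SE; adjusted p = 0.000285, edgeR). The call held with each batch left out and under all 15 other alternatives in which Celf4 was tested, with log2 fold changes from 1.05 to 1.33. Among Clmp cells 80.2% had a Celf4 UMI, and 51.1% after thinning (43.6 to 58.5, 184 cells). In the other 4 gates the thinned share was 25.0% (Ntsr1+Chrna3) to 36.2% (Gzmbl3+Lpar3).

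Celf3 lay between 0 and 12.7 CPM in Clmp sums (median 3.87), against 0 to 8.02 CPM in the other gates (median 1.22). Batch 27 had the highest Clmp value and batch 32 had none. Its log2 fold change was 1.88 ± 0.48 (SE; adjusted p = 0.00353, edgeR), with Celf3 higher in 13 of 14 batches. The call held with each batch left out, and the gate threshold of 50 CPM gave 0.88 (adjusted p = 0.376, edgeR). After thinning, 12.0% of Clmp cells had a Celf3 UMI (7.65 to 17.5, 184 cells) and 12.8% of Gzmbl3+Lpar3 cells (4.83 to 25.7, 47 cells). The thinned share was 5.26% in Th, 2.78% in Sst+Nppb and 1.67% in Ntsr1+Chrna3, so by cells Clmp was not the highest gate. Celf3 and Celf4 moved together over the sums, with a Pearson r of 0.49 over 48 sums on the batch-centred log2 scale. The sums share libraries and depth, so the value is a description.

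Gzmbl3+Lpar3 cells, summed per batch, carried more Celf1 and Celf2 RNA and less Celf4 RNA. Of the 9 members 2 were higher, beside 8.36% of all genes, and 1 was lower, beside 7.57% of all genes. The median log2 fold change of the members was -0.10, beside -0.02 over all genes. All 3 calls were lost with gate thresholds of 10 or 50 CPM and with at least 5 cells per sum. In the looser gates Celf1 (0.78, adjusted p = 0.00868, edgeR) and Celf2 (1.47, adjusted p = 0.0139) were called, and Celf4 was not (-0.41, adjusted p = 0.296).

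Celf1, known from muscle for its part in myotonic dystrophy, lay between 19.9 and 61.1 CPM in the 8 Gzmbl3+Lpar3 sums (median 36.8), against 8.79 to 48.8 CPM in the 41 sums of the other gates (median 21.5). Batches 24 and 22 gave values above every sum of the other gates. The log2 fold change came to 0.72 ± 0.23 (SE; adjusted p = 0.0249, edgeR), with Celf1 higher in 8 of 8 batches. It was lost without batch 20, 22, 26 or 29 in turn, the highest adjusted p being 0.0883 (edgeR).

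Celf2, which acts in splicing in brain and lymphocytes, lay between 3.60 and 43.4 CPM in Gzmbl3+Lpar3 (median 9.65), against 0 to 41.9 CPM in the other gates (median 3.28). The ranges overlapped almost fully, since batch 27 had 41.9 CPM in Sst+Nppb cells and batch 34 had 32.5 CPM in Ntsr1+Chrna3 cells. Within batches Celf2 was higher in 8 of 8, with a log2 fold change of 1.94 ± 0.58 (SE; adjusted p = 0.0174, edgeR). Without batch 26 the adjusted p was 0.0545 (edgeR). After thinning, 21.3% of Gzmbl3+Lpar3 cells had a Celf2 UMI (10.7 to 35.7, 47 cells), against 18.3% of Ntsr1+Chrna3 cells (9.52 to 30.4, 60 cells), 8.33% of Sst+Nppb cells (3.12 to 17.3, 72 cells), 5.26% of Th cells (0.133 to 26.0, 19 cells) and 4.89% of Clmp cells (2.26 to 9.08, 184 cells).

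Celf4 was low in the sums of the same cells. It lay between 0 and 22.7 CPM in Gzmbl3+Lpar3 (median 7.12), against 0 to 38.6 CPM in the other gates (median 18.9). The log2 fold change came to -1.12 ± 0.38 (SE; adjusted p = 0.0394, edgeR), with Celf4 lower in 8 of 8 batches. It was lost without batch 24, 26, 28-3, 29, 31 or 34 in turn (adjusted p up to 0.141, edgeR). The call was also lost with at least 2 cells per sum, with no batch term and with the bias-adjusted deviance, another edgeR setting. After thinning, 36.2% of these cells had a Celf4 UMI (22.7 to 51.5, 47 cells). The thinned share was 51.1% in Clmp, 31.6% in Th, 27.8% in Sst+Nppb and 25.0% in Ntsr1+Chrna3, so by cells Gzmbl3+Lpar3 was not the lowest gate. Elavl4 averaged 256 ± 65.7 CPM in Gzmbl3+Lpar3 (SD, n = 8) and 376 ± 103 CPM in the other gates (SD, n = 41), and was below the other gates in 7 of 8 batches. Its log2 difference of -0.47 ± 0.20 (SE) did not pass (adjusted p = 0.0968, edgeR).

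**Figure D3:**
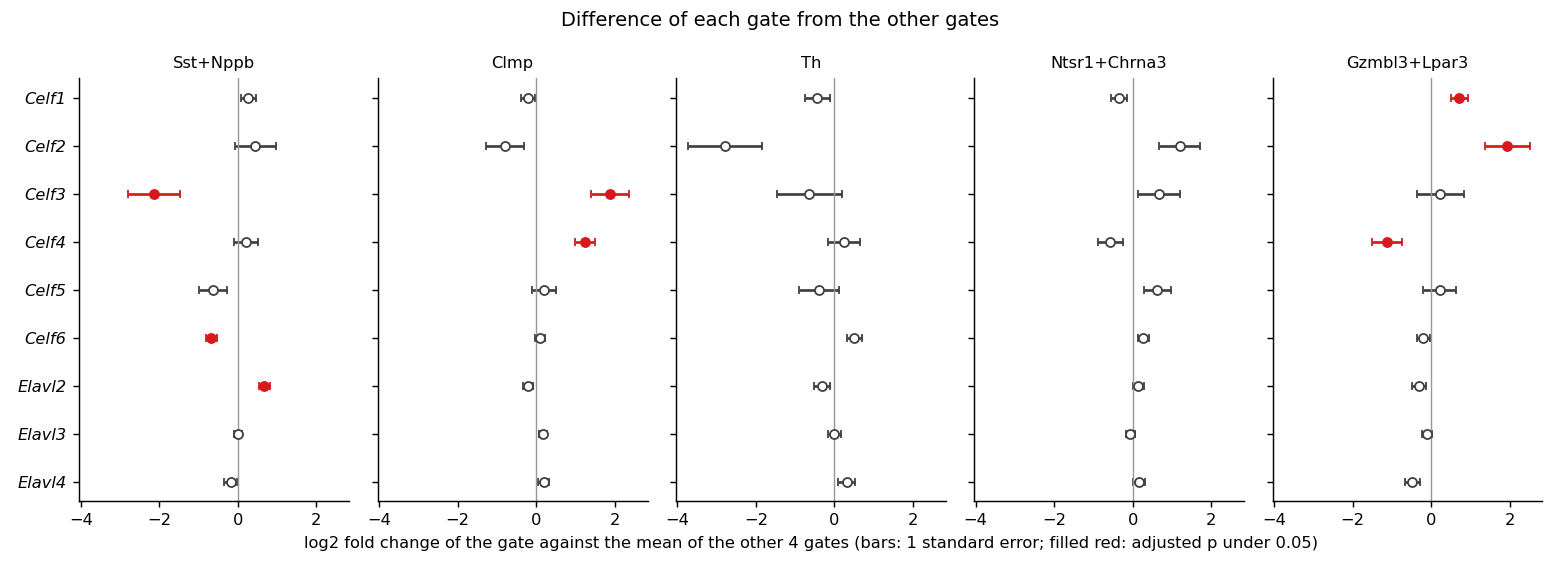
Log2 fold change (x axis) of each member (y axis) in each gate against the mean of the other 4 gates, with 1 standard error. Filled red points passed an adjusted p of 0.05: Celf3 and Celf4 higher in Clmp, Celf3 and Celf6 lower and Elavl2 higher in Sst+Nppb, and Celf1 and Celf2 higher and Celf4 lower in Gzmbl3+Lpar3.

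In Th and Ntsr1+Chrna3 cells no member passed the test. In Th, 0.459% of all genes were called higher and 0.357% lower, and in Ntsr1+Chrna3 0.654% higher and 0.586% lower, all with edgeR. At an unadjusted p under 0.05 edgeR gave 2 members in Th and 1 in Ntsr1+Chrna3. DESeq2 and limma voom also called 0 members in both gates, whereas limma on the mean CPM of cells called 1 in Ntsr1+Chrna3.

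In the first gating Celf2 was near 0 in Th cells. It read 2.45, 0, 0, 4.73 and 0 CPM in batches 20, 25, 26, 33 and 34, against 0 to 43.4 CPM in the 44 sums of the other gates (median 4.21). It was lower in 5 of 5 batches, with a log2 difference of -2.78 ± 0.94 (SE; adjusted p = 0.159, edgeR). In the looser gates it averaged 5.17 ± 6.08 CPM in Th (SD, n = 3) and 5.58 ± 6.76 CPM in the other gates (SD, n = 80), a log2 difference of 0.05. Celf6 read 109, 81.7, 153, 84.0 and 89.9 CPM in the same batches, a log2 difference of 0.50 ± 0.19 (SE; adjusted p = 0.238, edgeR). In Ntsr1+Chrna3 cells Celf6 lay in a narrow band of 86.8 to 124 CPM (median 99.1, n = 10), against 18.6 to 153 CPM in the other gates (median 86.0, n = 39), and Celf2 lay between 0.415 and 32.5 CPM. The log2 difference of Celf6 was 0.27 ± 0.14 (SE; adjusted p = 0.392, edgeR), and that of Celf2 1.19 ± 0.52 (SE; adjusted p = 0.287, edgeR).

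The gates were ordered by mean level, and each step is given with the spread of paired within-batch differences. A step beyond or within 1 SD is a description and no test, since the number of shared batches, at times only 2, does not enter. The order uses means over all sums, and within shared batches a step can go the other way. For Celf6 the order was Th, Ntsr1+Chrna3, Clmp, Gzmbl3+Lpar3 and Sst+Nppb, at 104, 102, 89.9, 83.6 and 62.2 CPM. The first 4 differed from their neighbours by less than 1 SD of the paired differences, and the step from Gzmbl3+Lpar3 to Sst+Nppb was 0.36 ± 0.27 on the log2 scale (SD, 6 shared batches). For Celf4 the order was Clmp, Th, Sst+Nppb, Ntsr1+Chrna3 and Gzmbl3+Lpar3, at 28.5, 19.5, 15.0, 10.9 and 9.76 CPM, and only the first step, 0.75 ± 0.56 (SD, 5 shared batches), exceeded 1 SD.

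Elavl2 ran from Sst+Nppb over Ntsr1+Chrna3, Clmp and Th to Gzmbl3+Lpar3, at 252, 196, 171, 145 and 140 CPM. Its first 3 steps were within 1 SD of the paired differences, and so was the difference of top and bottom gate, 0.68 ± 0.78 (SD, 6 shared batches). For Celf1 the order was Gzmbl3+Lpar3, Sst+Nppb, Clmp, Ntsr1+Chrna3 and Th, at 38.6, 29.6, 20.9, 20.2 and 18.1 CPM, and every step was within 1 SD. Celf2 ran from Gzmbl3+Lpar3 (14.4 CPM) over Ntsr1+Chrna3 (10.0), Sst+Nppb (7.19) and Clmp (3.00) to Th (1.44). Its top and bottom steps exceeded 1 SD, at 0.87 ± 0.66 (SD, 6 shared batches) and 0.70 ± 0.65 (SD, 5 shared batches). Celf3 ran from Clmp (4.86 CPM) over Ntsr1+Chrna3 (2.82), Gzmbl3+Lpar3 (1.95) and Th (1.56) to Sst+Nppb (0.599), and its first 2 steps were within 1 SD.

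Elavl3, Elavl4 and Celf5 were the members not called among the 5 gates in the reported fit. Elavl3 means ran from 182 CPM in Gzmbl3+Lpar3 to 214 CPM in Clmp. Between these gates Elavl3 was higher in Clmp in 7 of 7 shared batches, by 0.36 ± 0.33 on the log2 scale (SD). Elavl4 means ran from 256 CPM in Gzmbl3+Lpar3 to 408 CPM in Th, with Clmp at 404, Ntsr1+Chrna3 at 383 and Sst+Nppb at 318 CPM. In the 2 batches shared by its top and bottom gates, Elavl4 was higher in Th than in Gzmbl3+Lpar3 by 1.00 ± 0.15 on the log2 scale (SD). Celf5 means ran from 11.2 CPM in Sst+Nppb to 19.6 CPM in Gzmbl3+Lpar3, and all its steps were within 1 SD. The highest sums of Celf5, at 57.9 CPM for Gzmbl3+Lpar3 in batch 24 and 48.0 CPM for Th in batch 25, came from 3 cells each. A p that misses the threshold does not show that these 3 genes are equal across gates.

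Over all kept cells of a batch, without gates, the members varied between batches as well. Celf6 lay between 59.7 and 104 CPM over the 16 batches, Elavl4 between 290 and 471 CPM, Elavl2 between 123 and 273 CPM and Celf4 between 5.53 and 33.6 CPM. The batch term in the fit takes up such shifts.

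The 3 gates with too few sums were described from looser gates, chosen after seeing how few cells the first rule gave. Here a cell's score for a gate was the CPM of its gate genes, added up for a pair, relative to the median of the gate's 20 highest cells. A cell went to its highest gate if that score was at least 0.1 and at least 2 times the next. A pair gate thus did not need each of its genes. Of the kept cells, 632 entered a gate, and sums needed 2 cells. Sst+Nppb and Th held fewer cells than in the first gating, at 64 beside 90 and 18 beside 23. This gave 83 sums in 8 gates, with 7 for Trpm8, 9 for Nmu+Lad1 and 4 for Pvalb+Vsnl1, and each gate was set against the mean of the other 7 in a fit on 12247 genes.

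The sums of Trpm8 cells, which express the cold channel, carried more RNA of Elavl4, the gene of HuD, by this test. Of the 9 members 1 was higher, beside 4.92% of all genes, and 0 were lower, beside 2.61% of all genes, by edgeR. At an unadjusted p under 0.05 edgeR gave 3 members, and DESeq2 and limma voom each called 2 higher and 0 lower. With RLE scaling 422 genes were higher and 508 lower, beside 602 and 320 with TMM scaling, and the median over all genes was -0.17, beside -0.07. Elavl4 lay between 339 and 1251 CPM in the 7 Trpm8 sums (median 586), against 25.5 to 803 CPM in the 76 sums of the other gates (median 353). The highest value, in batch 28-1, came from 114 Elavl4 UMIs among 102756. The log2 fold change came to 0.82 ± 0.19 (SE; adjusted p = 0.00374, edgeR), with Elavl4 higher in 7 of 7 batches. It held with each batch left out, at 0.69 without batch 28-1. With the mean CPM of cells in place of sums it was 0.51 (adjusted p = 0.198, limma). Averaged over single cells of the looser gates, Elavl4 was at 556 CPM in Trpm8, 567 in Th and 251 to 426 in the others. In the 19 Trpm8 cells of the first gating Elavl4 was at 397 CPM, pooled over cells. The same value was 409 CPM in Th, 391 in Ntsr1+Chrna3, 375 in Clmp and 280 in Sst+Nppb. Celf4 was at 10.1 to 46.6 CPM in Trpm8 (median 25.1), a log2 difference of 1.06 ± 0.36 (SE; adjusted p = 0.0548, edgeR). The Foxp2 gene, seen in cold neurons, was at 51.1 CPM in these cells. Its level in the other gates, and the other cold-neuron genes checked (Cdh8, Tafa4 and Rxfp1), are not given here, so it names no cell type.

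Nmu+Lad1 cells carried more Celf4 and Celf5 RNA by this test, and neither call was secure. Of the 9 members 2 were higher, beside 5.54% of all genes, and 0 were lower, beside 4.22% of all genes, by edgeR, with 4 members at an unadjusted p under 0.05. DESeq2 called 3 higher and limma voom 2, with 0 lower in both. Celf4 lay between 13.2 and 46.6 CPM in the 9 Nmu+Lad1 sums (median 22.4), against 0 to 46.6 CPM in the other gates (median 14.4), a log2 fold change of 0.92 ± 0.30 (SE; adjusted p = 0.0396, edgeR). Celf5 averaged 24.3 ± 12.5 CPM (SD, n = 9; median 25.9), against 15.8 ± 12.2 CPM in the other gates (SD, n = 74; median 13.8), a log2 fold change of 1.08 ± 0.37 (SE; adjusted p = 0.0477, edgeR). Celf4 was higher in 7 of 9 batches and Celf5 in 8 of 9. With glia-rich cells left out neither passed (adjusted p = 0.105 for Celf4 and 0.122 for Celf5, edgeR), and after thinning Celf4 did not (adjusted p = 0.154) and Celf5 could not be tested. The Celf4 call was lost without batch 23, 25, 27, 29, 31 or 35, and that of Celf5 without batch 20, 23, 25, 26, 28-3, 29, 30, 31, 33, 34 or 35. Without batch 27 the log2 fold change of Celf5 was 1.94 (adjusted p = 0.0169, edgeR). Tafa4 and Zfp521, genes of C-low-threshold mechanoreceptors, were at 48.1 and 43.8 CPM in these cells. Their levels in the other gates, and Slc17a8, P2ry1 and Gfra2 of the same list in these cells, are not given here.

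Pvalb+Vsnl1 cells had little Celf6 RNA. Low Celf6 in cells with neurofilament genes had been seen earlier in these data, so these values are no independent support for it. Pvalb marks large proprioceptive and touch neurons, and Nefh was at 745 CPM and Spp1 at 390 CPM in these cells. The levels of these genes in the other gates, and Ntrk3, Runx3, Calb1 and Kcnc1 of the same list, are not given here, so they name no cell type. Of the 21 cells of this gate, 12 were in no gate of the first gating and 6 passed several. Another 2 were in Sst+Nppb and 1 in Pvalb+Vsnl1. The Pvalb+Vsnl1 sums were shallow, at 969062 UMIs in batch 27, 19413 in batch 29, 182836 in batch 32 and 59138 in batch 34. Celf6 had 6 UMIs in batch 27 (5.36 CPM), none in batches 29 and 32, and 5 UMIs in batch 34 (93.5 CPM). A count of 0 allows up to 155 CPM in batch 29 and 16.4 CPM in batch 32, taken as 3 counts per sum. In batch 27 the other gates had 35.9 CPM (Sst+Nppb), 37.7 (Trpm8), 66.3 (Clmp), 79.8 (Gzmbl3+Lpar3) and 92.1 CPM (Ntsr1+Chrna3).

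Of the 9 members 1 was lower in Pvalb+Vsnl1, beside 7.15% of all genes, and 0 were higher, beside 3.36% of all genes, by edgeR, with 3 members at an unadjusted p under 0.05. DESeq2 called 1 lower and limma voom 2 lower, with 0 higher in both. The median over all genes was -0.16 with TMM scaling (411 genes higher, 876 lower) and 0.14 with RLE scaling (792 higher, 338 lower). Celf6 had a log2 fold change of -2.72 ± 0.53 (SE; adjusted p = 0.000344, edgeR) and -2.40 with RLE scaling, and was lower in 3 of 4 batches. It was -1.86 without batch 27 (adjusted p = 0.0385, edgeR) and -3.90 without batch 34. Glial genes summed to 49.2 to 1691 CPM in these sums (median 583), with 7 of 9 detected and Fabp7 and Kcnj10 at 0, beside medians of 205 to 401 CPM in the other gates. With glia-rich cells left out, the log2 fold change of Celf6 was -4.24 (adjusted p = 6.6e-07, edgeR). The other 8 members did not pass, and Celf1 had 77 UMIs in batch 27 and none in the other 3 sums.

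**Figure D4:**
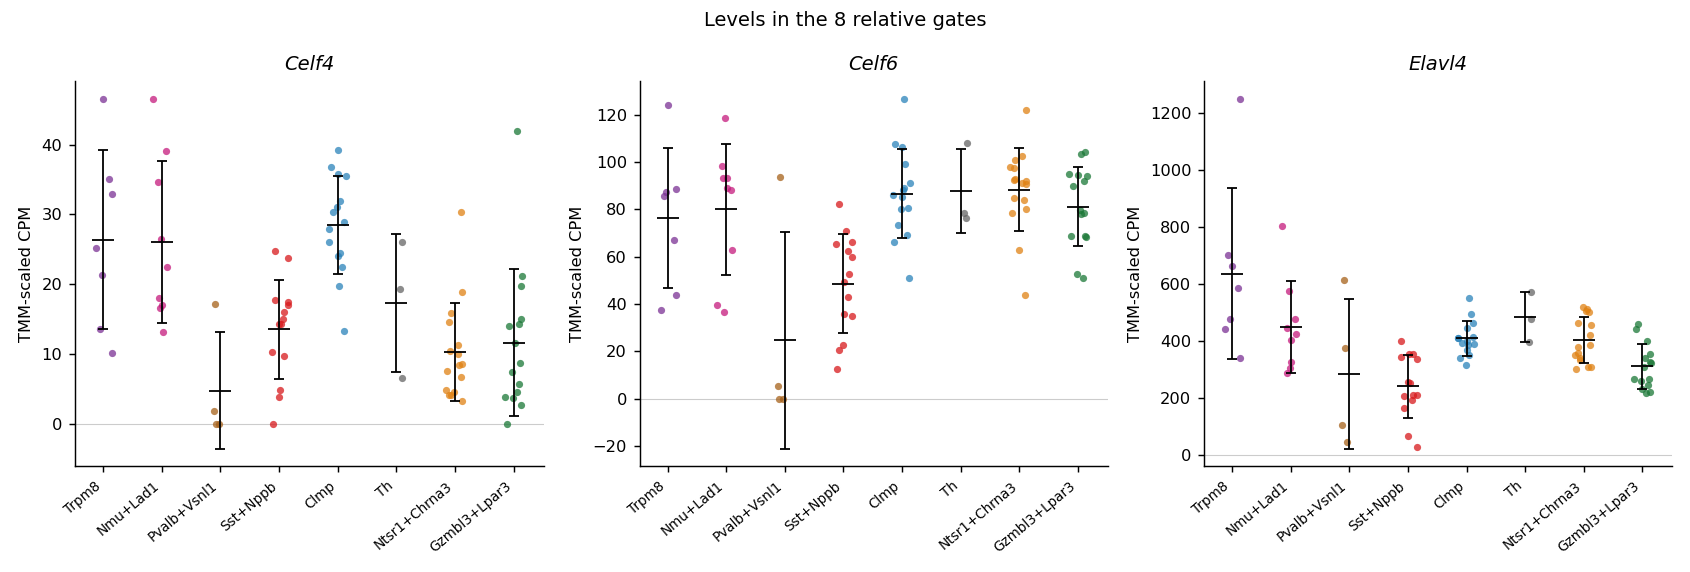
TMM-scaled CPM (y axis, linear) of Celf4, Celf6 and Elavl4 in the sums of the 8 looser gates (x axis), with mean and SD bars, which pass below 0 where the SD exceeds the mean. Elavl4 is highest in Trpm8 sums, and Celf6 reads 0 in the Pvalb+Vsnl1 sums of batches 29 and 32, whose depth allows up to 155 and 16.4 CPM.

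Other RNA-binding protein genes were read in the same 5-gate fit, from a list of 51, of which 48 were in the counts and 40 were tested. In Sst+Nppb 1 was higher (Mbnl2, a muscleblind splicing factor, 0.29 ± 0.08, log2 ± SE, adjusted p = 0.0187, edgeR) and 1 lower (Khdrbs1, -0.32 ± 0.10, adjusted p = 0.0408). In Clmp 2 were higher, led by Rbfox1 (0.50 ± 0.11), a neuronal splicing factor, and 0 lower by edgeR. Th had 0 higher and 1 lower, Tardbp, the gene of TDP-43 (-0.82 ± 0.19, adjusted p = 0.0228, edgeR), and Ntsr1+Chrna3 had 0 in both directions. Gzmbl3+Lpar3 had 3 higher, led by Tardbp (0.59 ± 0.14), and 2 lower, led by Khdrbs3 (-1.18 ± 0.33). Over all genes 3.96% were higher and 1.72% lower in Sst+Nppb, 10.6% and 8.71% in Clmp, and 8.36% and 7.57% in Gzmbl3+Lpar3. The list's median log2 fold changes lay between -0.03 and 0.05, beside -0.03 to 0.04 over all genes.

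Of 15 transcripts reported as bound by HuD or CELF4, all tested, Sst+Nppb cells had 2 higher and 0 lower, with Kcna1, a potassium channel gene, at 1.04 ± 0.25 and Bdnf at 0.75 ± 0.16 (log2 ± SE). Gzmbl3+Lpar3 cells had 1 higher, the cell-cycle inhibitor gene Cdkn1a (0.38 ± 0.11), and 4 lower, among them Ache (-0.66 ± 0.21), Mapt (-0.57 ± 0.12) and Syt4 (-0.38 ± 0.11). Clmp cells had 5 higher (Bdnf, Mapt, Atf3, Syt4 and the growth-cone gene Gap43) and 1 lower (Kcna1, -1.43 ± 0.24), names chosen after their values were seen. Th had 0 in both directions by edgeR and Ntsr1+Chrna3 had 1 lower, Atf3 (-0.37 ± 0.09). The list's medians were 0.16 in Sst+Nppb, 0.32 in Clmp, 0.0098 in Th, -0.05 in Ntsr1+Chrna3 and -0.18 in Gzmbl3+Lpar3, beside 0.0071, 0.03, -0.03, 0.04 and -0.02 over all genes in the same gates. The shares of all genes called are those given for the list of RNA-binding protein genes, and in Ntsr1+Chrna3 0.586% of all genes were lower.

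Genes whose pattern over 48 sums was most like that of a called member, by Pearson r on batch-centred log2(CPM + 1) among 6740 candidates, were Aacs (0.74), Myl12b (0.72) and Uqcc2 (0.71) for Celf4, and Thap3 (0.70), Atl1 (0.69) and Rab39a (0.68) for Celf6. For Celf2 they were Tmx1 (0.80), Dnajc5 (0.79) and Serinc1 (0.79), and for Elavl2 Adam19 (0.69), Fyn (0.67) and Wnt16 (0.67). Celf1 was most like Arl8b (0.67), Slc16a3 (0.67) and Atf1 (0.64), and Celf3 most like Slc29a4 (0.68), Eml2 (0.66) and Rgs17 (0.63). Among the members themselves Elavl3 and Elavl4 had the highest r (0.54), and the lowest were Celf2 with Celf4 (-0.47) and Celf1 with Celf6 (-0.45). Over the 83 sums of the looser gates these 3 pairs had an r of 0.45, -0.11 and 0.36, and the highest was that of Celf1 with Celf2 (0.64).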

How the data were processed

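The authors made 3′ libraries of single cells by a modified Smart-seq2 method with cell barcodes and UMIs, per the labels' protocols. The deposited files hold UMI counts per gene and cell, with no normalization. The submitters' processing notes name UMI-tools, STAR, featureCounts, Subread, SAMtools and Rnor_6.0, without versions, and the sources used here give no strand setting.

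Counts were summed per batch and gate and fitted with edgeR 4.0.16 in R 4.3.3 (genes kept by filterByExpr at 10 counts, TMM scaling, the quasi-likelihood F-test on gate and batch as terms, Benjamini-Hochberg adjustment over all genes, threshold 0.05). Gate genes were left out of counts of called genes. SE is the size of the fold change over the square root of F. Sums are pools of single cells, so deep cells weigh more. Counts of batches higher or lower use log2(CPM + 1), and gates compared share batches and other gates. All 9 members and, by r, the 3 most like genes per called member were named, with, per gate and direction, the called gene of the RNA-binding list with the largest fold change, and the called targets in Sst+Nppb and Gzmbl3+Lpar3, where most members were called, except 1 target that is not reported here. The members, gates and lists were chosen with earlier results of these data known. The fit was tested on simulated counts. Alternatives used limma 3.58.1 and DESeq2 1.42.0. Promoters came from RefSeq. No doublets were called, since cells were picked by hand. Batch 21 was not analysed here.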

Additional observations from a re-analysis of the deposited data

Results flagged for a closer look

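Single sums stood apart from the other sums of their gate for 15 of 54 member and gate groups of 4 to 10 sums, by the gap between the extreme sum and its nearest neighbour over the range. For normally distributed values chance flags about 1 group in 20. CPM with many zeros are not of that kind, so that rate is no measure of an excess here. A group with a single sum above 0 is always flagged. Of the 15 flagged groups, 7 lie in the 4 shallow Pvalb+Vsnl1 sums: in batch 27 Celf1 at 68.7 CPM, Celf2 at 4.46, Celf3 at 0.893 (from 1 UMI) and Celf5 at 9.82 CPM, each with 0 in the other 3 sums, Celf4 at 17.2 and Elavl3 at 195 CPM in batch 32, and Celf6 at 93.5 CPM in batch 34. In Gzmbl3+Lpar3, Celf2 was at 43.4 CPM in batch 22 (next highest 19.6) and Celf5 at 57.9 CPM in batch 24 (next highest 24.4). In Th, Celf5 was at 48.0 CPM in batch 25 (next highest 12.4), and in Ntsr1+Chrna3, Celf3 was at 8.02 CPM in batch 28-3 (next highest 4.15). In Trpm8 cells, Celf2 was at 25.3 CPM in batch 24 and Elavl4 at 1251 CPM in batch 28-1. In Nmu+Lad1 cells, Celf2 was at 18.9 CPM in batch 26, and Elavl2 was low at 38.0 CPM in batch 22 (next lowest 147).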

How the results depend on the processing

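The log2 fold changes of Celf4 in Clmp and of Celf6 in Pvalb+Vsnl1 stayed past the threshold under each alternative in which they were tested. Each of the other called values lost its call under at least 1 alternative, and the cause was not tested. Among log2 fold changes and cell shares of single members under other alternatives, 872 kept their side, 40 lost a call, 30 gained one, 14 shares moved with thinning and 2 reversed. With a batch left out, 1095 kept their side, 37 lost a call, 10 gained one and 1 reversed.

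With a gate threshold of 10 CPM, 3 members differed among gates (6 as reported), and 0 were called in Sst+Nppb (3), 1 in Clmp (2) and 1 in Gzmbl3+Lpar3 (3). At 50 CPM 1 was called in Clmp and 0 in Gzmbl3+Lpar3. With cells thinned to 30000 UMIs, only 4 members could be tested in the first gating (not Celf1 to Celf5), and 3 of these differed among gates, with 1 called in Sst+Nppb (Elavl2), 0 in Clmp, where Celf3 and Celf4 were untested, and 1 in Gzmbl3+Lpar3 (Elavl4). In Nmu+Lad1 0 were called, with Celf5 untested. At least 2 cells per sum gave 1 in Clmp, at least 5 gave 1 in Ntsr1+Chrna3 and 0 in Gzmbl3+Lpar3, and at least 3 gave 0 in Nmu+Lad1. The looser gates gave 1 in Sst+Nppb (Elavl4, none of the 3 reported) and 1 in Ntsr1+Chrna3 (Celf6), and there Celf6 in Gzmbl3+Lpar3 reversed to 0.51 (adjusted p = 0.0144, edgeR), the comparison then holding 8 gates. The Celf6 median of that gate was 79.8 CPM, below the 81.5 CPM of the other sums. The mean CPM of cells with limma gave 1 in Ntsr1+Chrna3, 0 in Trpm8 and 5 in Pvalb+Vsnl1, where Celf1 reversed to -2.61. Cells with 4000 genes gave 2 in Trpm8 and 1 in Nmu+Lad1. No filter on low counts gave 1 in Nmu+Lad1 and 2 in Pvalb+Vsnl1, and leaving out glia-rich cells gave 1 in Nmu+Lad1. DESeq2 and the bias-adjusted deviance each gave 2 in Trpm8, and limma voom gave 2 in Trpm8 and 2 in Pvalb+Vsnl1.

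Batches are shared by the gates and entered as a block in the reported fits. With no replicate block, 2 members were called in Sst+Nppb, 2 in Clmp, 3 in Gzmbl3+Lpar3 and 0 in Nmu+Lad1. With each batch left out, the count lay between 5 and 6 among gates, 2 and 3 in Sst+Nppb, 0 and 3 in Gzmbl3+Lpar3 (0 without batch 26, 1 without batch 29), 1 and 2 in Trpm8, 0 and 2 in Nmu+Lad1 and 1 and 2 in Pvalb+Vsnl1, where Celf1 lay between -7.71 (without batch 27, reversed) and 0.42. A gate needed 3 sums, so without batch 25, 33 or 34 the looser Th gate dropped out and 7 gates were compared. Counts over all genes also moved with the tool. In Sst+Nppb 669 were called with edgeR (466 higher, 203 lower), 1341 with limma voom and 1755 with limma on mean CPM (459 higher, 1296 lower). In Th 96 were called with edgeR, 240 with DESeq2, 160 with limma voom, 187 with the bias-adjusted deviance and 149 with mean CPM. In Ntsr1+Chrna3 the same tools gave 146, 342, 569, 492 and 345. Limma voom gave 2853 in Gzmbl3+Lpar3 (1875 with edgeR), 1478 in Trpm8 (922), 2035 in Nmu+Lad1 (1195) and 2794 in Pvalb+Vsnl1 (1287), DESeq2 1406 in Trpm8, and mean CPM 510 in Trpm8 and 5243 in Pvalb+Vsnl1. Th gave no value at a gate threshold of 10 CPM or with at least 5 cells per sum, nor Pvalb+Vsnl1 thinned or with at least 3 cells, nor a member that the filter on low counts removed. The alternatives that change the first gating do not apply to the 3 looser gates. The looser gates and the bias-adjusted deviance were chosen after seeing the data.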

Other observations

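In the looser gates, which hold 8 gates instead of 5, Elavl4 was lower in Sst+Nppb cells, at -0.73 ± 0.15 on the log2 scale (SE; adjusted p = 0.000198, edgeR), and Celf6 was called higher in Clmp (0.62 ± 0.16, adjusted p = 0.00343), in Ntsr1+Chrna3 (0.66 ± 0.15, adjusted p = 0.00316) and in Gzmbl3+Lpar3 (0.51 ± 0.16, adjusted p = 0.0144). Celf6 medians were 86.2, 91.6 and 79.8 CPM in these gates, against 79.2, 78.5 and 81.5 CPM in the other sums, so that of Gzmbl3+Lpar3 was below. The gates were higher in 13 of 15, 14 of 16 and 10 of 15 batches. The mean of the other gates includes Pvalb+Vsnl1, where the Celf6 median was 2.68 CPM over 4 shallow sums. The Rbfox1 gene was lower in Nmu+Lad1 cells, at -1.83 ± 0.18 (log2 ± SE), while Celf4 and Celf5 were higher there.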
